A study of Mus musculus with 9 samples.

Results

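The 10 canonical YAP/TAZ target genes Ankrd1, Cyr61, Ctgf, Amotl1, Amotl2, Nuak2, Axl, F3, Ajuba and Tgfb2 were followed in MS1 cells, an immortalised mouse endothelial cell line from the pancreas. They were chosen by symbol as known targets of the pathway, with earlier results of these data in view, and each symbol matched a row of the iGenomes gene table, so they are 10 of 17565 genes. Cyr61 and Ctgf are named Ccn1 and Ccn2 in newer annotations. Poly-A RNA was sequenced from 3 groups of 3 samples each. The first group stably expressed TAZ-CAMTA1 from the lentiviral vector pCDH-TAZ-CAMTA1, the second stably expressed TAZ4A from pCDH-TAZS4A, and the control group carried the vector pCDH-puro. TAZ-CAMTA1 is the fusion of the coactivator TAZ with the transcription factor CAMTA1 found in epithelioid haemangioendothelioma, and TAZ4A is named in the field for a TAZ in which serines phosphorylated by the LATS kinases are replaced by alanine. The labels do not say whether the 3 samples of a group were separate cultures or transductions, so the p-values measure the spread between these samples, which may be technical. All groups share 1 cell line, and construct and transduced population cannot be told apart.

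YAP and TAZ are coactivators that cannot bind DNA themselves and act on promoters and enhancers mainly through the TEAD transcription factors, often beside AP-1. The Hippo kinases LATS1 and LATS2 phosphorylate them and hold them in the cytoplasm. Several of their targets feed back on the pathway (the angiomotin family and AJUBA), and others are secreted or displayed at the surface of endothelial cells, where they touch matrix, clotting and TGF-beta signalling.

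The question was which of the 10 targets differed from control with both constructs, with 1 of them, or with neither. Against control, 7 of the 10 were higher with both constructs (Ankrd1, Cyr61, Amotl2, Nuak2, Ajuba, Tgfb2 and Axl), F3 was higher with TAZ4A and was also higher with TAZ4A than with TAZ-CAMTA1, and Ctgf and Amotl1 passed the test with neither. No target passed with TAZ-CAMTA1 alone. The sizes differed: Ankrd1 and Axl were 3.47 and 1.85 times their control means in TAZ-CAMTA1 libraries, and 12.8 and 37.9 times in TAZ4A libraries. A gene counts as called at a Benjamini-Hochberg adjusted p under 0.05 over all 12350 genes tested, in a limma-trend fit of log2(CPM + 0.5) over all 9 libraries. With TAZ-CAMTA1, 7 members were called higher and 0 lower, where 16.8% of all genes were called higher and 15.3% lower. With TAZ4A, 8 members were called higher and 0 lower, where 13.2% of all genes were called higher and 11.7% lower. Higher calls with both constructs made up 6.20% of all genes, against 7 of the 10 members, and 56.7% of all genes were called with neither, against 2 of the 10. Since the members were picked with results of these libraries known, these shares describe them and are not independent evidence. Axl and F3 are among the members called higher with TAZ4A, and Axl among those called with both. None of their control libraries reached 0.5 CPM, so they entered the test through the TAZ-CAMTA1 and TAZ4A libraries alone. The median log2 fold change of the 10 members was 0.66 with TAZ-CAMTA1 and 1.32 with TAZ4A, where the median of all genes tested was -0.03 and -0.01. Both sets of values use the same 3 control libraries and are therefore not independent of each other. The Axl call with TAZ-CAMTA1 is the least firm of these and is taken up below.

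**Figure D1:**
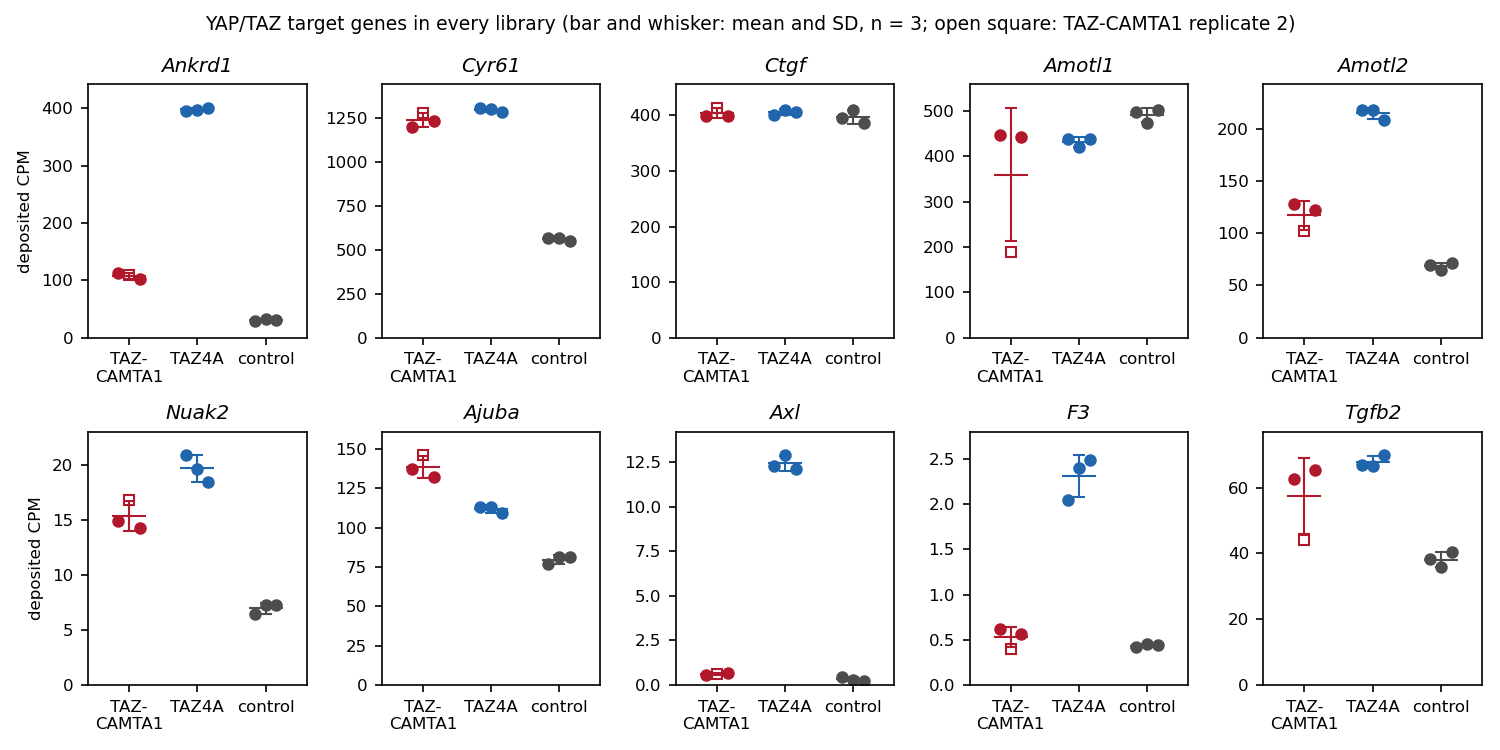
Deposited CPM of the 10 targets in every library, with TAZ-CAMTA1, TAZ4A and control libraries from left to right in each panel, each panel on its own scale from 0. Filled points and the open square (TAZ-CAMTA1 replicate 2) are libraries, and bars with whiskers are means with SDs (n = 3). Ankrd1, Axl and F3 stand far higher in the TAZ4A libraries than in the others, the Cyr61 points of both constructs lie at 1199 CPM or more and those of control at 570 CPM or less, and the Ctgf points of all groups lie between 387 and 414 CPM.

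The libraries held 21966004 to 34224715 reads assigned to genes. TAZ-CAMTA1 replicate 2 stood apart from all others: its log2 values correlated with those of its 2 fellow replicates at 0.962 to 0.963, where the other 7 replicate pairs reached 0.997 to 0.999. In it, ribosomal protein genes took 4.37% of the reads, where the other 8 libraries had 2.01% to 2.32%, and multiply mapped reads were 30.6% of junction reads, where the others had 20.8% to 22.2%. For the members and lists that it moves most, values are also given without it. All 10 endothelial markers examined (among them Pecam1, Cdh5 and Kdr) averaged at least 1 CPM in each group. Their summed level was 8957 to 11295 CPM in TAZ-CAMTA1, 6710 to 6900 CPM in TAZ4A and 9864 to 10191 CPM in control libraries. The 8957 CPM is that of replicate 2, and the other libraries of its group lay above every control library. Kdr was at 555, 207 and 544 CPM in the TAZ-CAMTA1 libraries, while Eng, Emcn and Esam were highest in replicate 2. Camta1 was at 13.1 ± 0.579, 4.91 ± 0.253 and 4.05 ± 0.923 CPM (SD, n = 3 each) in TAZ-CAMTA1, TAZ4A and control libraries, and the TAZ-CAMTA1 libraries were above control (log2 fold change 1.60, limma adjusted p = 7.6e-05). Wwtr1, the gene of TAZ, was at 437 ± 94.4, 325 ± 8.70 and 551 ± 17.6 CPM in the same order, the first with 492, 328 and 491 CPM in its libraries, and it was lower in the libraries labelled TAZ4A than in control (-0.76, limma adjusted p = 0.0057). The species and sequence of the constructs are not given in the sources used here, so whether their reads fall on mouse Wwtr1 is unknown and this row does not check the TAZ4A label. The libraries are called by their labels throughout.

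Of the 10 members, 8 had a promoter in the RefSeq table for GRCm38.p6 (250 bases before to 50 after the start site). Both strands were searched for the TEAD motif GGAATG and the AP-1 motif TGANTCA, which do not overlap in these windows. GGAATG or its reverse complement was found in 5 of the 8, those of Ankrd1, Cyr61, Amotl2, Axl and Ajuba, and in 14.7% of all 32851 RefSeq promoters of that length. TGANTCA was found in 1 of the 8, that of F3, and in 7.81% of all promoters. Neither was found in the windows of Amotl1 and Tgfb2. The 5 promoters shown belong to targets with different responses. Axl and Ankrd1 have the largest fitted log2 fold changes between the constructs. By ratio of mean CPM, with nothing added, F3 (0.229) differs more between them than Ankrd1 (0.272). Cyr61 has the smallest estimated difference between the constructs among those raised, F3 was raised by TAZ4A alone, and Amotl1 was not raised. Each is read 5′ to 3′ on the gene's own strand, and capitals mark the motif matches, which are descriptions of these letters and not measured binding sites.
Ankrd1, chr19:36119795-36120094, minus strand: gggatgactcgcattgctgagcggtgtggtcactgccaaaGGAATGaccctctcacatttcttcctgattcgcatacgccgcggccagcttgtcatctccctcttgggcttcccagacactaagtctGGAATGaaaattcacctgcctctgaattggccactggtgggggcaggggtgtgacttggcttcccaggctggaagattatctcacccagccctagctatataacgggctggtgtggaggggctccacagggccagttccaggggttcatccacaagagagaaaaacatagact
Cyr61, chr3:145649936-145650235, minus strand: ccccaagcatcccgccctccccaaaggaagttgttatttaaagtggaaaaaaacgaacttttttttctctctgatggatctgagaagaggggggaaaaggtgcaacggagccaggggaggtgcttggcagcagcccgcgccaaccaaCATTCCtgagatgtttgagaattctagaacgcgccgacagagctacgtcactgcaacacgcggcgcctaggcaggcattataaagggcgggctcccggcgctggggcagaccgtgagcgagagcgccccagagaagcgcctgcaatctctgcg
Axl, chr7:25788684-25788983, minus strand: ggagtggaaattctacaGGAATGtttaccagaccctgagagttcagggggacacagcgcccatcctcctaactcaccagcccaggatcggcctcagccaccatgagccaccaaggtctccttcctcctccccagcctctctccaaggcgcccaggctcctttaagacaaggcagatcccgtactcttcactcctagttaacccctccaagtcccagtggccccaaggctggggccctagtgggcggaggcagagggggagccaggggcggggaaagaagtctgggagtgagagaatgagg
F3, chr3:121723287-121723586, plus strand: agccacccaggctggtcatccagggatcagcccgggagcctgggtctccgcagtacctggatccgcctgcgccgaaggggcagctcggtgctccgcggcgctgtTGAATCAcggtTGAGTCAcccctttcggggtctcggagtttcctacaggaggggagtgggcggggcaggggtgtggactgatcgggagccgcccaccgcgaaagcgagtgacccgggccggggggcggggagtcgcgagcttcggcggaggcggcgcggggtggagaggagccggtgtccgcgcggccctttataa
Amotl1, chr9:14614951-14615250, minus strand: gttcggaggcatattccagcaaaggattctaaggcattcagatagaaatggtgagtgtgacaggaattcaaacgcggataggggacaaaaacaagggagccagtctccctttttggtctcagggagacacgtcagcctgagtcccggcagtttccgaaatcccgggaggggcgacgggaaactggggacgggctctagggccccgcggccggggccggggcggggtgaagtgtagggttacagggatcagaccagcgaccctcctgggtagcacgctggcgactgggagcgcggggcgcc
Counted from the start site to the first base of the match, the Ankrd1 matches lie at -210 and -123, the Axl match at -233, the Cyr61 match (as CATTCC, the reverse complement) at -103, and the F3 pair of AP-1 matches at -146 and -135. Amotl2 held GGAATG at -65 and Ajuba at -186 and -164, all on the other strand. Targets with a match were thus found among those with the smallest and with the largest difference between the constructs.

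Ankrd1 encodes a nuclear ankyrin-repeat protein first known from cardiac muscle and is one of the most used readouts of YAP and TAZ. It lies on chromosome 19 (36111964 to 36119844, minus strand, mm10). The TAZ-CAMTA1 libraries had 113, 109 and 102 CPM, the TAZ4A libraries 396, 397 and 401 CPM, and the control libraries 29.5, 32.7 and 31.4 CPM. The 3 groups did not overlap, and the distances between them were many times the spread within them. Its log2 fold change against control was 1.78 ± 0.07 with TAZ-CAMTA1 (SE, limma adjusted p = 1.3e-06) and 3.65 ± 0.07 with TAZ4A (adjusted p = 2.7e-08). It was lower with TAZ-CAMTA1 than with TAZ4A, at a log2 fold change of -1.88 (95% interval -2.04 to -1.71, adjusted p = 4.7e-07).

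Cyr61 and Ctgf are sister genes of the CCN family, whose secreted proteins sit in the matrix and bind integrins, and they parted here. Cyr61 was at 1199, 1279 and 1233 CPM in TAZ-CAMTA1, at 1307, 1302 and 1286 CPM in TAZ4A, and at 567, 570 and 549 CPM in control libraries. Both constructs took it above control without overlap, with log2 fold changes of 1.14 ± 0.06 for TAZ-CAMTA1 (limma adjusted p = 6.2e-06) and 1.21 ± 0.06 for TAZ4A (adjusted p = 2.3e-06). The constructs were not told apart for it: the difference TAZ-CAMTA1 against TAZ4A was -0.07, with a 95% interval of -0.21 to 0.07 (adjusted p = 0.39). Even so, its highest TAZ-CAMTA1 library (1279 CPM) lay below its lowest TAZ4A library (1286 CPM), and with library quality weights it was called lower with TAZ-CAMTA1 (-0.10, adjusted p = 0.018). Ctgf was at 399, 414 and 400 CPM in TAZ-CAMTA1, at 400, 410 and 407 CPM in TAZ4A, and at 395, 411 and 387 CPM in control libraries. All 3 groups of Ctgf overlapped. Its log2 fold change against control was 0.03 with either construct, with 95% intervals of -0.12 to 0.17 (TAZ-CAMTA1) and -0.11 to 0.17 (TAZ4A), so a change of the size seen in Cyr61 lies outside both. The ratio of the sisters within a library does not depend on the scaling of the library. There were 3.00, 3.09 and 3.09 Cyr61 reads per Ctgf read in TAZ-CAMTA1, 3.27, 3.17 and 3.16 in TAZ4A, and 1.44, 1.39 and 1.42 in control libraries. No group overlapped another in this ratio, and each exact two-sided permutation test gave p = 0.1, the smallest that 3 against 3 can give.

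The angiomotins AMOTL1 and AMOTL2 are junction-bound scaffolds that bind YAP and TAZ and keep them out of the nucleus, and this pair of genes parted too. Amotl2 was at 128, 102 and 122 CPM in TAZ-CAMTA1, at 218, 218 and 208 CPM in TAZ4A, and at 69.5, 64.9 and 71.1 CPM in control libraries. The groups did not overlap, with log2 fold changes against control of 0.76 ± 0.10 for TAZ-CAMTA1 (limma adjusted p = 5.1e-04) and 1.64 ± 0.10 for TAZ4A (adjusted p = 5.2e-06). It was lower with TAZ-CAMTA1 than with TAZ4A (-0.88, adjusted p = 1.8e-04). With replicate 2 left out, the Amotl2 values of TAZ-CAMTA1 were 0.86 against control and -0.78 against TAZ4A. Amotl1 was at 447, 190 and 442 CPM in TAZ-CAMTA1, at 438, 420 and 438 CPM in TAZ4A, and at 498, 473 and 503 CPM in control libraries. The value of 190 CPM is that of replicate 2, the library that stands apart, and it sets the spread of the whole fit for this gene (SE 0.29). With it, the log2 fold change was -0.55 for TAZ-CAMTA1 (adjusted p = 0.18) and -0.19 for TAZ4A (adjusted p = 0.72). Without it, every TAZ-CAMTA1 and TAZ4A library was below every control library, and Amotl1 was called lower with both, at log2 fold changes of -0.14 ± 0.05 with TAZ-CAMTA1 (adjusted p = 0.012) and -0.19 ± 0.04 with TAZ4A (adjusted p = 9.7e-04). In that fit 32.3% and 30.3% of all genes were called lower with TAZ-CAMTA1 and with TAZ4A. Amotl2 reads per Amotl1 read were 0.286, 0.535 and 0.276 in TAZ-CAMTA1, 0.497, 0.519 and 0.475 in TAZ4A, and 0.139, 0.137 and 0.141 in control libraries. The ratio of the pair was thus above control with both constructs in every library (exact permutation p = 0.1 each), and the constructs overlapped through replicate 2 (exact permutation p = 0.4).

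Nuak2 and Ajuba act inside the cell, and their order between the constructs was opposite. NUAK2 is a kinase related to AMPK that acts on actomyosin, and Nuak2 was at 14.8, 16.8 and 14.3 CPM in TAZ-CAMTA1, at 20.9, 19.6 and 18.4 CPM in TAZ4A, and at 6.41, 7.23 and 7.24 CPM in control libraries. Its log2 fold change was 1.08 ± 0.10 with TAZ-CAMTA1 (limma adjusted p = 8.1e-05) and 1.43 ± 0.10 with TAZ4A (adjusted p = 1.2e-05), and it was lower with TAZ-CAMTA1 than with TAZ4A (-0.35, adjusted p = 0.020). That difference between the constructs did not pass in 4 of 22 alternative settings, without TAZ-CAMTA1 replicate 3 (adjusted p = 0.055), without TAZ4A replicate 1 or 2 (0.085 and 0.064), and in a fit of the 6 samples alone (0.053). AJUBA is a LIM-domain scaffold that restrains the LATS kinases. Ajuba was at 137, 146 and 132 CPM in TAZ-CAMTA1, at 113, 113 and 109 CPM in TAZ4A, and at 76.7, 81.2 and 81.3 CPM in control libraries. Among the 10 members it alone was called higher with TAZ-CAMTA1 than with TAZ4A: 0.31 ± 0.07 (adjusted p = 0.0083). The authors' deposited table lists a false discovery rate of 0.098 for that difference. Spliced reads of Ajuba overlapped between the constructs through TAZ-CAMTA1 replicate 2 (ratio 1.11, exact permutation p = 0.6). Without that library the ratio was 1.30. Against control Ajuba was higher by 0.79 ± 0.07 with TAZ-CAMTA1 (adjusted p = 7.5e-05) and by 0.49 ± 0.07 with TAZ4A (adjusted p = 9.7e-04). On the deposited TPM scale the difference between the constructs was 0.20 (adjusted p = 0.078), where the median of all genes stood at -0.13 on that scale and at -0.02 in CPM.

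Axl and F3, whose proteins stand on the cell surface, had mean CPM with TAZ-CAMTA1 at 0.0487 and 0.229 times those with TAZ4A. AXL is the receptor tyrosine kinase for the ligand GAS6, and its gene lies on chromosome 7 (25756499 to 25788733, minus strand, mm10). Axl was at 0.556, 0.604 and 0.654 CPM in TAZ-CAMTA1, at 12.3, 12.9 and 12.1 CPM in TAZ4A, and at 0.464, 0.299 and 0.219 CPM in control libraries. The TAZ4A level rested on 1232 reads, the TAZ-CAMTA1 level on 51 and the control level on 27, each over 3 libraries. Its log2 fold change was 3.98 ± 0.12 with TAZ4A against control (limma adjusted p = 9.7e-08) and -3.55 ± 0.12 with TAZ-CAMTA1 against TAZ4A (adjusted p = 2.7e-07). TAZ-CAMTA1 against control gave 0.43 ± 0.12 (adjusted p = 0.025), with no overlap between the groups. This call was lost in 7 of 22 alternative settings, where the log2 fold change ran from 0.13 to 0.43, among them the fits without TAZ-CAMTA1 replicate 3 (adjusted p = 0.064), without control replicate 2 (0.080) and without control replicate 3 (0.093). The authors' deposited table lists a false discovery rate of 0.054 for it. The added 0.5 CPM understates fold changes at such levels, and the ratio of mean CPM of TAZ4A over control was 37.9.

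F3 encodes tissue factor, the membrane protein that starts clotting as the partner of factor VII, and lies on chromosome 3 (121723536 to 121735052, plus strand, mm10). It was at 0.617, 0.403 and 0.567 CPM in TAZ-CAMTA1, at 2.04, 2.40 and 2.49 CPM in TAZ4A, and at 0.418, 0.448 and 0.439 CPM in control libraries, which are 45, 229 and 38 reads in all. The TAZ4A libraries stood above the rest, while the TAZ-CAMTA1 and control libraries overlapped. The log2 fold change was 0.13 with TAZ-CAMTA1 (95% interval -0.13 to 0.39, limma adjusted p = 0.40) and 1.58 ± 0.11 with TAZ4A (adjusted p = 1.7e-05), and the test between the constructs gave -1.45 ± 0.11 (adjusted p = 2.9e-05). Leaving out TAZ-CAMTA1 replicate 2 gave 0.22 for that construct against control (adjusted p = 0.17). Axl and F3 passed the filter on low values through the TAZ-CAMTA1 and TAZ4A libraries alone, since none of their control libraries reached 0.5 CPM. Their entry into the tests against control thus depended on the groups where they are higher. The other 8 members passed it in every library.

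Tgfb2, the gene of the secreted ligand TGF-beta 2, was at 62.6, 44.0 and 65.4 CPM in TAZ-CAMTA1, at 66.9, 66.5 and 69.9 CPM in TAZ4A, and at 38.2, 35.8 and 40.3 CPM in control libraries. Every library of either construct was above every control library. The log2 fold change was 0.56 ± 0.14 with TAZ-CAMTA1 (limma adjusted p = 0.017) and 0.82 ± 0.14 with TAZ4A (adjusted p = 0.0030). The constructs were not told apart (-0.26, 95% interval -0.58 to 0.06, adjusted p = 0.18). Without TAZ-CAMTA1 replicate 2, whose 44.0 CPM is the lowest of its group, the TAZ-CAMTA1 value was 0.74 ± 0.06 (adjusted p = 2.6e-08). The TAZ-CAMTA1 call was lost in 4 of 22 settings, without control replicate 1 (adjusted p = 0.053), without control replicate 2 (0.064), on the TPM scale (0.11) and in a fit of the 6 samples alone (0.065).

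Between the constructs, 5 members were lower with TAZ-CAMTA1 than with TAZ4A (Ankrd1, Amotl2, Nuak2, Axl and F3) and 1 was higher (Ajuba), where 18.5% of all genes were called lower and 19.4% higher. Of the 5, the log2 fold change ran from -3.55 for Axl to -0.35 for Nuak2. Cyr61, Ctgf, Amotl1 and Tgfb2 were not told apart. The authors' deposited table lists 4 of the 10 under a false discovery rate of 0.05 here, with 0.079 for Nuak2 and 0.098 for Ajuba. The median over the 10 members was -0.36, where the median of all genes was -0.02. The same 6 members were called in the same directions without TAZ-CAMTA1 replicate 2, where 32.2% of all genes were called lower and 30.8% higher.

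**Figure D2:**
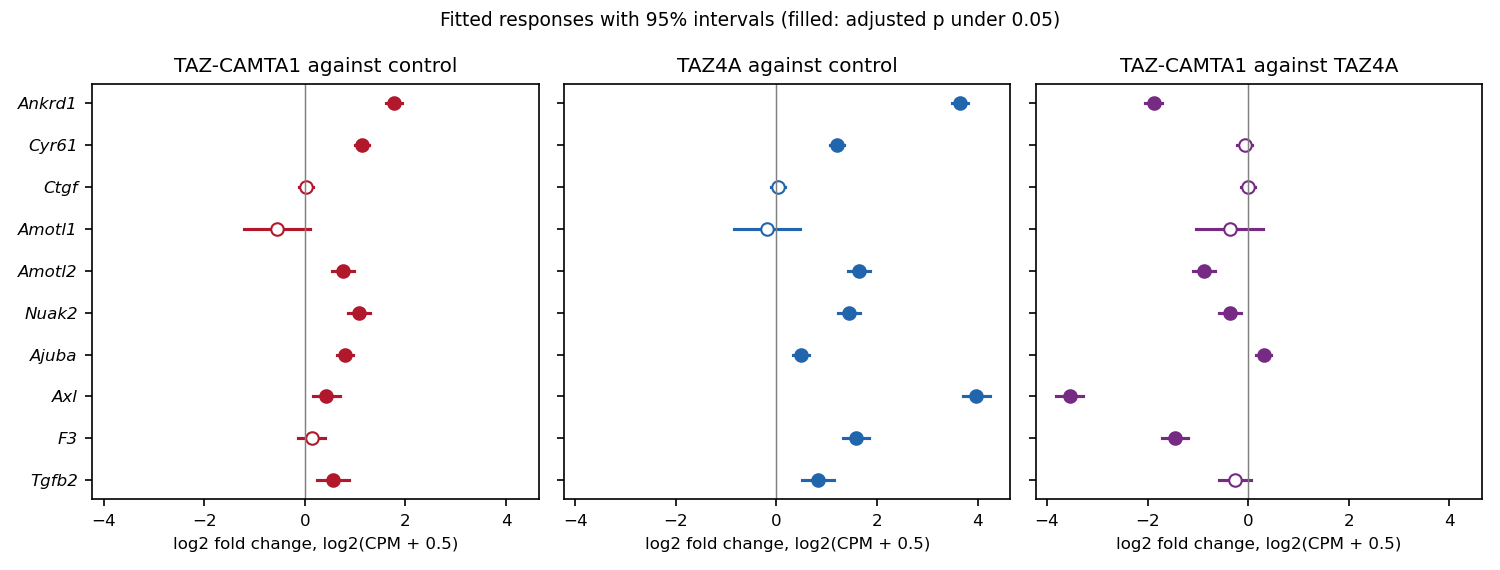
Fitted log2 fold changes of the 10 targets on the log2(CPM + 0.5) scale with 95% intervals, for TAZ-CAMTA1 against control, TAZ4A against control and TAZ-CAMTA1 against TAZ4A. Filled points have an adjusted p under 0.05. Amotl1 has the widest interval, from -1.21 to 0.11 with TAZ-CAMTA1, and Ctgf lies at 0.03 in both comparisons with control.

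Levels were compared between genes on the deposited TPM scale, which is per length. Cyr61 had the highest TPM of the 10 in every group, with means of 1424, 1612 and 674 TPM in TAZ-CAMTA1, TAZ4A and control libraries. In TAZ-CAMTA1 libraries Ctgf (393 TPM) and Ankrd1 (143 TPM) came next, followed by Amotl1 (97.1 TPM) and Ajuba (92.2 TPM), whose libraries overlapped, then Amotl2 (66.0 TPM), Tgfb2, Nuak2, F3 (0.671 TPM) and Axl (0.278 TPM). In TAZ4A libraries Ankrd1 (568 TPM) stood above Ctgf (425 TPM), Amotl2 (129 TPM) above Amotl1 (122 TPM), and Axl (6.16 TPM) above F3 (3.10 TPM), with no overlap between neighbours anywhere in the order. In control libraries Ctgf was second at 402 TPM, Amotl1 the third at 134 TPM and Ajuba the next at 55.4 TPM, and then came Ankrd1 and Amotl2, which overlapped at 43.0 and 39.8 TPM. Tgfb2, Nuak2, F3 and Axl followed at 19.6, 5.41, 0.564 and 0.157 TPM. Axl was thus the lowest of the 10 in TAZ-CAMTA1 and control libraries, and F3 the lowest in TAZ4A libraries.

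**Figure D3:**
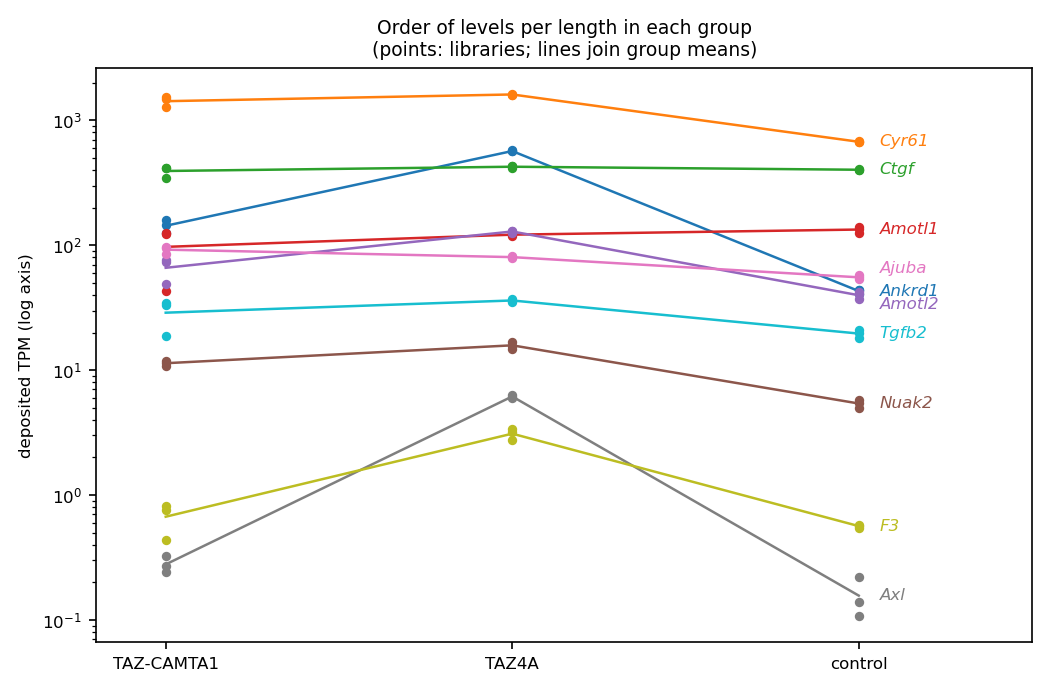
Deposited TPM of the 10 targets on a log axis in TAZ-CAMTA1, TAZ4A and control libraries. Points are libraries and lines join group means. Ankrd1 crosses Ctgf and Axl crosses F3 in the TAZ4A libraries, and the single low points of Amotl1, Amotl2, Tgfb2 and F3 in the TAZ-CAMTA1 column belong to replicate 2.

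Reads that cross an annotated intron of each gene gave a second count from the same libraries, expressed as RPM, scaled to the uniquely mapped junction reads of the library (6410070 to 9889541 per library). Axl had 6, 4 and 4 such reads in TAZ-CAMTA1, 152, 148 and 128 in TAZ4A, and 4, 4 and 2 in control libraries, and Ankrd1 had 1136, 813 and 758, then 3946, 4129 and 3872, then 208, 354 and 317 in the same order of groups. In RPM, the ratio to control for Axl was 1.44 with TAZ-CAMTA1, where the groups overlapped (exact permutation p = 0.3), and 36.0 with TAZ4A, where they did not (p = 0.1, the smallest possible). For Ankrd1 the ratios were 3.40 and 12.3 and for Cyr61 2.11 and 2.29, each with no overlap. Nuak2, at 2.05 and 2.96, showed none either. Ctgf gave 0.915 with TAZ-CAMTA1 and 1.02 with TAZ4A and overlapped in both. Amotl2, Ajuba and Tgfb2 were above control without overlap with TAZ4A, at ratios of 3.17, 1.34 and 1.74. With TAZ-CAMTA1 their ratios were 1.501, 1.49 and 1.32 and their groups overlapped, in each case through replicate 2, and without it the ratios were 1.75, 1.74 and 1.69. Amotl1 gave 0.629 with TAZ-CAMTA1 (0.876 without replicate 2) and 0.999 with TAZ4A, so its spliced reads did not show the small fall that its CPM showed with TAZ4A once replicate 2 was left out. F3 had few spliced reads, 3, 1 and 3 in TAZ-CAMTA1, 6, 21 and 13 in TAZ4A, and 0, 1 and 3 in control libraries. Its ratio of 10.1 with TAZ4A became 27.0 without control replicate 3, and its ratio of 2.21 with TAZ-CAMTA1 became 5.91.

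**Figure D4:**
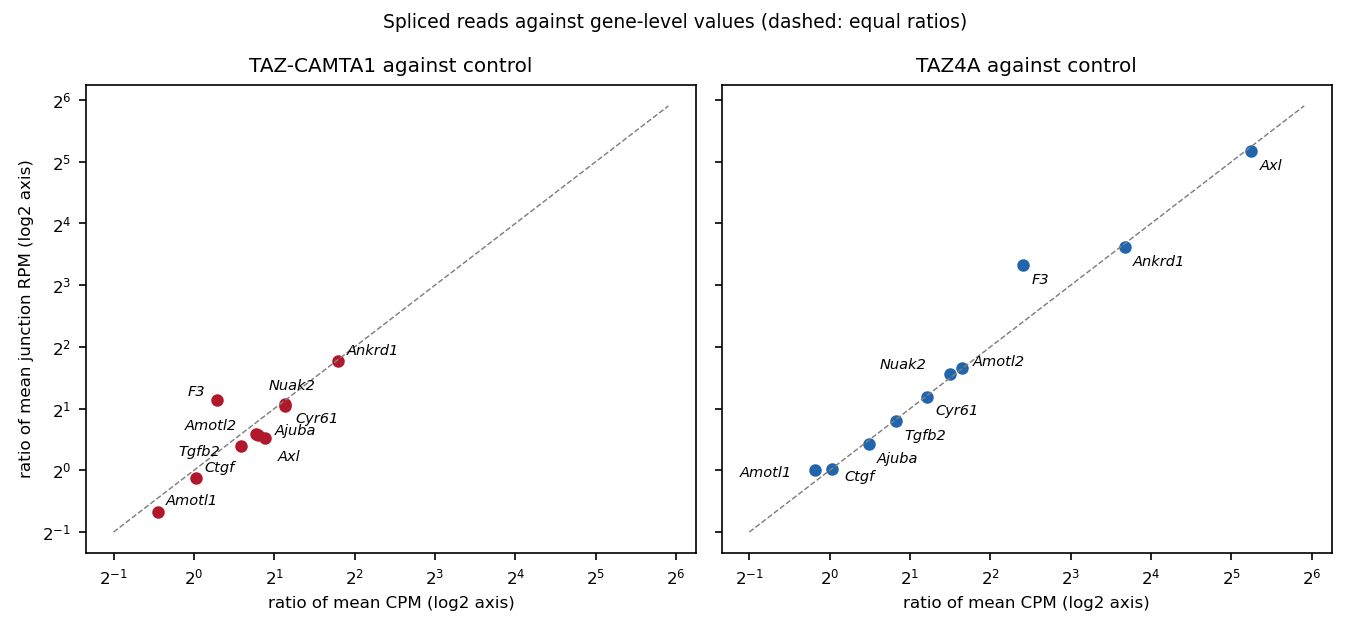
Ratio of mean junction reads (RPM) against ratio of mean CPM for the 10 targets, TAZ-CAMTA1 against control on the left and TAZ4A against control on the right, both axes on a log2 scale. The dashed line marks equal ratios. Axl and Ankrd1 lie far up the line with TAZ4A, at CPM ratios of 37.9 and 12.8, and F3, with few spliced reads, lies farthest off it.

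Within TAZ-CAMTA1 replicate 2 the members were not shifted alike. Relative to the mean of replicates 1 and 3, its spliced reads in RPM were 0.154 for Amotl1, whose longest transcript in GENCODE vM21 has 8957 bases, 0.337 for Tgfb2 (5116 bases) and 0.571 for Amotl2 (4427 bases). They were 0.561 for Ajuba (3397 bases), 0.861 for Nuak2 (3107 bases), 0.803 for Ctgf (2490 bases), 0.929 for Ankrd1 (2020 bases) and 0.815 for Cyr61 (2019 bases). Axl stood at 0.866 with 4265 bases and F3 at 0.348 with 1872 bases, both on few reads. Amotl1 and Tgfb2, with the longest transcripts, had the lowest values, and the other members did not follow the order of length throughout. Ajuba and the longer Amotl2 lay close together, on 360 and 194 spliced reads in replicate 2. In CPM the values of replicate 2 were 0.428 for Amotl1, 0.688 for Tgfb2, 0.814 for Amotl2, 1.09 for Ajuba, 1.16 for Nuak2, 1.02 for Ankrd1 and 1.05 for Cyr61. The part of RNA quality or of transcript length in this was not tested.

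Other reported targets and relatives of the 10 genes were read from the same fit. Of 17 further genes reported as YAP/TAZ targets, 15 were tested, and 6 were higher and 3 lower with TAZ-CAMTA1 than in control, and 10 were higher and 0 lower with TAZ4A. Over all genes 16.8% were higher and 15.3% lower with TAZ-CAMTA1, so the 3 of 15 lower are near that share, and 13.2% were higher and 11.7% lower with TAZ4A. Tgm2, the gene of a transglutaminase, was higher with TAZ-CAMTA1 than with TAZ4A (log2 fold change 1.01, limma adjusted p = 3.4e-05), at 370 ± 31.5 against 183 ± 8.87 CPM (SD, n = 3). In the opposite direction, Inhba, an activin subunit gene, was at 1.88 ± 0.887, 9.18 ± 0.550 and 0.554 ± 0.191 CPM. Thbs1, the gene of the matrix protein thrombospondin 1, was at 834 ± 325 CPM with TAZ-CAMTA1 and 2108 ± 18.9 CPM with TAZ4A, and Slit2, a guidance ligand gene, at 28.9 ± 11.2 and 91.6 ± 0.978 CPM. Those 3 were lower with TAZ-CAMTA1 than with TAZ4A (-2.10, -1.43 and -1.73, adjusted p = 4.6e-04, 0.0041 and 0.0013). With TAZ-CAMTA1 replicate 2 left out their values were -1.79, -1.04 and -1.37. Ddah1, which breaks down a nitric oxide synthase inhibitor, was higher with both constructs than in control (1.49 and 2.12). Sdpr, Dab2 and Myc were lower with TAZ-CAMTA1 than in control, at log2 fold changes of -0.69, -0.53 and -0.37 (adjusted p = 0.0043, 0.019 and 0.023). Leaving out TAZ-CAMTA1 replicate 2 gave -0.53, -0.36 and -0.48 for them. Between the constructs 8 of the 15 were lower with TAZ-CAMTA1 and 2 higher, where 18.5% and 19.4% of all genes were. The median log2 fold change of the 15 was 0.17 with TAZ-CAMTA1 and 0.79 with TAZ4A.

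Of the other 14 genes of a published pan-cancer YAP/TAZ signature, 10 were tested. With TAZ-CAMTA1 1 was higher than in control (Arhgef17, 0.94, limma adjusted p = 5.0e-04) and 1 lower (Rbms3, -0.78, adjusted p = 0.0035). With TAZ4A 2 were higher, Arhgef17 at 0.67 (adjusted p = 0.0030) and Lats2, the gene of the kinase that restrains TAZ, at 1.01 (adjusted p = 0.0033). These counts of 1 to 2 in 10 are near or below the shares over all genes just given. Lats2 averaged 90.4 ± 23.1, 188 ± 4.97 and 93.4 ± 6.43 CPM in TAZ-CAMTA1, TAZ4A and control libraries, and was lower with TAZ-CAMTA1 than with TAZ4A (-1.09, adjusted p = 0.0017), as were Rbms3 (-1.06) and Crim1 (-0.86) among 5 of the 10. Between the constructs 5 of the 10 were thus lower with TAZ-CAMTA1 and 0 higher, where 18.5% and 19.4% of all genes were. With TAZ-CAMTA1 replicate 2 left out the counts were 6 lower and 1 higher, where 32.2% and 30.8% of all genes were. The Lats2, Rbms3 and Crim1 differences were then -0.86, -0.89 and -0.60. Without that library, where more genes of the whole table were called, the signature counts were 2 higher and 3 lower with TAZ-CAMTA1, and 7 higher and 0 lower with TAZ4A. The 17 other reported targets then gave 10 higher and 4 lower with TAZ-CAMTA1 and 14 higher and 0 lower with TAZ4A, and in that fit 28.5% of all genes were called higher and 32.3% lower with TAZ-CAMTA1, and 28.1% higher and 30.3% lower with TAZ4A.

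Among 14 paralogs of the members 11 were tested, and 4 were higher and 1 lower with TAZ-CAMTA1 and 1 higher and 1 lower with TAZ4A. The TAZ4A counts are near the shares over all genes (13.2% higher and 11.7% lower), as is the 1 lower with TAZ-CAMTA1 (15.3%), where 16.8% of all genes were higher. Nov, another gene of the CCN family of Cyr61 and Ctgf, was at 876 ± 82.6, 396 ± 3.22 and 413 ± 23.9 CPM in TAZ-CAMTA1, TAZ4A and control libraries. It was thus higher with TAZ-CAMTA1 than in control (1.08, limma adjusted p = 5.2e-05) and than with TAZ4A (1.14, adjusted p = 2.5e-05). Wisp1, likewise a CCN gene, was higher with TAZ-CAMTA1 than in control (0.71, adjusted p = 0.027). Tyro3, which encodes a receptor of the AXL family, was higher with both constructs (0.79 and 0.59). Tgfb3 was lower with both (-0.75 and -0.26), and Tgfb1 and Wtip, a LIM-protein gene related to Ajuba, were higher with TAZ-CAMTA1 than with TAZ4A (0.57 and 0.55, adjusted p = 0.0058 and 0.029). Amot was lower with TAZ-CAMTA1 than with TAZ4A (-0.66, adjusted p = 0.029). With TAZ-CAMTA1 replicate 2 left out, Tgfb1, Wtip and Amot stood at 0.44, 0.37 and -0.40 between the constructs, and Wisp1 at 0.99 against control. Without replicate 2, those counts against control were 5 higher and 2 lower with TAZ-CAMTA1, where 28.5% and 32.3% of all genes were, and 4 higher and 1 lower with TAZ4A, where 28.1% and 30.3% were.

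Of 11 genes whose products bind the members' proteins, 10 were tested, and 3 were higher and 0 lower with TAZ-CAMTA1 and 4 higher and 2 lower with TAZ4A. The shares over all genes were 16.8% and 15.3% with TAZ-CAMTA1 and 13.2% and 11.7% with TAZ4A. Gas6, the gene of the AXL ligand, was at 9.30 ± 0.894, 8.33 ± 0.782 and 2.40 ± 0.0300 CPM in TAZ-CAMTA1, TAZ4A and control libraries. It was called higher with both constructs, by 1.75 (limma adjusted p = 8.9e-06) and 1.60 (adjusted p = 9.4e-06). Itgb5, an integrin subunit gene, was likewise higher with both (2.08 and 1.51), and so was Tfpi2, the gene of a protease inhibitor (0.37 and 0.84). Itgb3, whose integrin binds CCN proteins, was at 370 ± 76.0, 165 ± 2.36 and 278 ± 1.80 CPM, and Tgfbr2, a TGF-beta receptor gene, at 561 ± 69.9, 363 ± 1.19 and 509 ± 26.1 CPM. Both were lower with TAZ4A than in control (-0.75 and -0.48, adjusted p = 0.0047 and 0.0070) and higher with TAZ-CAMTA1 than with TAZ4A (1.14 and 0.62), as was Tgfbr3 (0.89). Without replicate 2 the counts were 9 higher and 0 lower with TAZ-CAMTA1 and 6 higher and 3 lower with TAZ4A, where 28.5% and 32.3%, and 28.1% and 30.3%, of all genes were, so the 3 of 10 lower are at the share of all genes. Of the 4 TEAD genes, Tead3 alone was called against control. It was higher with both, by 0.68 with TAZ-CAMTA1 (adjusted p = 0.0016) and 1.103 with TAZ4A (adjusted p = 9.4e-05). Tead3 had the lowest level of the 4, at 4.90, 6.73 and 2.86 CPM in TAZ-CAMTA1, TAZ4A and control libraries. Tead1, Tead2 and Tead4 were called with neither construct.

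**Figure D5:**
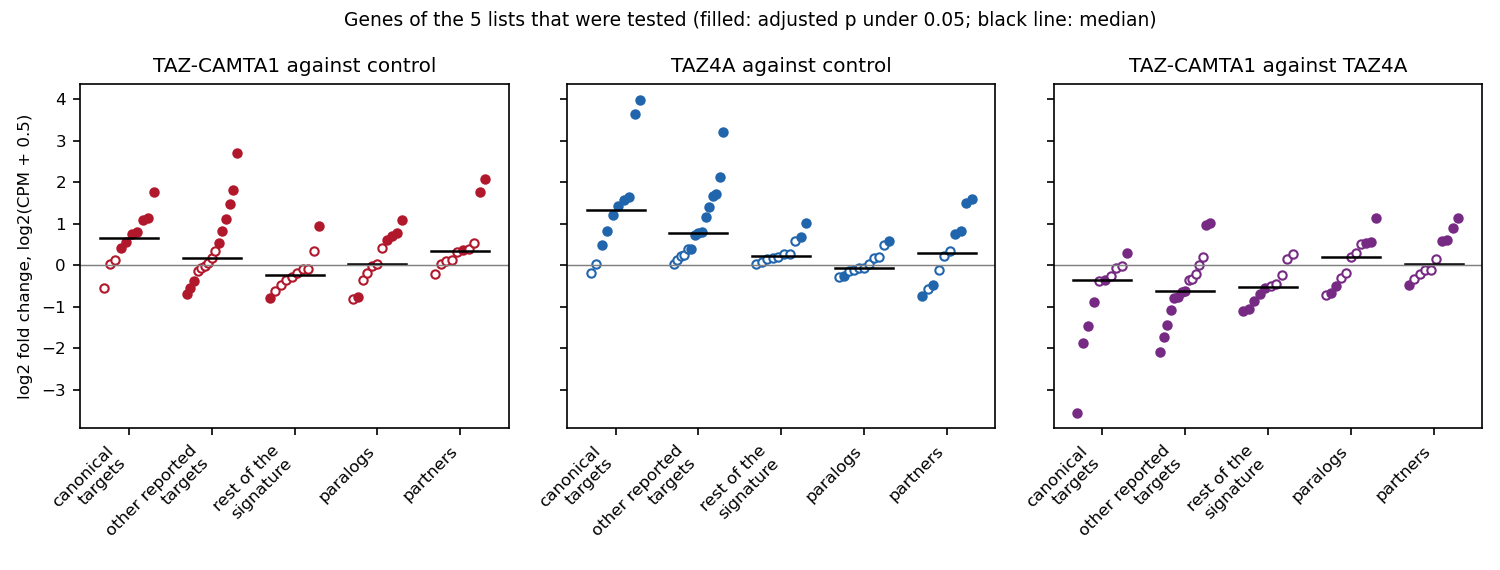
Log2 fold changes on the log2(CPM + 0.5) scale of the tested genes of 5 lists (the 10 canonical targets, 15 other reported targets, 10 further signature genes, 11 paralogs and 10 binding partners) for TAZ-CAMTA1 against control, TAZ4A against control and TAZ-CAMTA1 against TAZ4A. Each point is a gene, filled where the adjusted p is under 0.05, and the black lines are medians. With TAZ4A the called genes of the canonical, other reported and signature lists all lie above 0, and with TAZ-CAMTA1 the other reported and signature lists hold called genes on both sides.

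Markers of other cell types moved with some of these groups. The summed level of 8 smooth muscle markers was 5.37 to 6.54 CPM in TAZ-CAMTA1 and 12.3 to 13.9 CPM in TAZ4A libraries. In control libraries it was 2.54 to 3.16 CPM. The sum was higher with TAZ4A than with TAZ-CAMTA1 mainly through Cnn1. Acta2, Des and Myh11 were also higher with TAZ4A, at means of 0.757, 0.424 and 0.121 CPM against 0.270, 0.126 and 0.0215 CPM. Cnn1 had 6.93 to 7.84 CPM in TAZ4A libraries and no reads in those of TAZ-CAMTA1. Pdgfrb ran the other way between the constructs, at means of 5.19, 4.30 and 2.49 CPM in TAZ-CAMTA1, TAZ4A and control libraries. So did Tagln and Cspg4 at lower means, 0.0902 and 0.0814 CPM with TAZ-CAMTA1 and 0.0797 and 0.0411 CPM with TAZ4A. There were no Rgs5 reads in the libraries of either construct. The summed level of 8 fibroblast markers was 49.4 to 54.2, 37.2 to 39.4 and 26.1 to 30.1 CPM, with no Lum reads in TAZ-CAMTA1, no Postn reads in TAZ4A and neither Dcn nor Postn reads in control libraries. Of the leukocyte markers only Cd68 averaged 1 CPM or more, and the sum was 456 to 704, 394 to 402 and 451 to 524 CPM. The epithelial sum was 34.1 to 65.7, 29.9 to 32.8 and 24.8 to 28.1 CPM. The highest leukocyte and epithelial sums belong to TAZ-CAMTA1 replicate 2. Cd68 was at 456, 703 and 530 CPM in the TAZ-CAMTA1 libraries, and Krt18 at 24.5, 46.4 and 19.4 CPM. All 4 sums are small beside the endothelial sums above, and their part in the members' values was not tested. In bulk samples, more cells with a transcript and more of it per cell cannot be told apart.

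For each member called in at least 1 comparison, the 2 genes most alike in pattern were taken as those with the smallest root mean square difference in log2(CPM + 0.5), relative to control, over the 6 libraries of both constructs, among 11680 named genes. For Cyr61 these were C1rl and Smoc1 (0.0844 and 0.0856), for Ajuba Mb21d2 and Bid (0.0411 and 0.0439), and for Tgfb2 Pde7a and Tank (0.0430 and 0.0752). For Amotl2 they were Mob3b and Slc5a1 (0.108 and 0.149), and for Nuak2 Ch25h and Pcolce2 (0.101 and 0.115). Ankrd1 had no near match, the closest being Cxadr at 0.395 and Sertad4 at 0.494. For Axl they were the chemokine genes Ccl7 and Ccl9 (0.175 and 0.252): Ccl7 averaged 0.236, 7.81 and 0.0917 CPM in TAZ-CAMTA1, TAZ4A and control libraries. For F3 they were Tnfsf15 and Lce1h (0.108 and 0.141), both near 1 CPM or below in every group. With 0.5 CPM added, alike patterns at such levels are not alike fold changes. Tnfsf15 averaged 0.896 CPM in TAZ4A and 0.00996 CPM in control libraries, and Lce1h 1.09 and 0.0254 CPM. F3 averaged 2.31 and 0.435 CPM in the same order. The Axl match Ccl9 averaged 6.86 and 0.0204 CPM, where Axl averaged 12.4 and 0.328 CPM.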

How the data were processed

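Per the labels' protocols, column-extracted, DNase-treated RNA was poly-A selected and prepared with a stranded kit for an Illumina HiSeq run. The submitters' processing notes name bcl2fastq, FastQC, STAR, featureCounts and edgeR on mm10, without versions or settings, and whether strand entered the counting is not given in the sources used here. The values per gene are a deposited signal that the authors call CPM (iGenomes genes). Library sums ran from 976997 to 1028367, and 100% of values were whole multiples of 1 read (tolerance 0.01), so whole reads were recovered. TPM are as deposited by the authors. Their deposited comparison table holds log2 fold changes with p-values, adjusted as false discovery rates. The junction files hold read counts per intron, as STAR output deposited by the authors.

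The 10 members and all gene lists were chosen with earlier results of these data known. Named are all members, the called list genes with the largest changes (up to 3 per direction), Wwtr1, Camta1 and the TEAD genes where a result touches them, and the 2 most similar genes per member. Groups and replicate numbers came from the sample titles. Genes that reached 0.5 CPM in 3 or more libraries entered limma-trend (limma 3.58.1, R 4.3.3, eBayes robust and with a trend), run on log2(CPM + 0.5) with 6 residual degrees of freedom and Benjamini-Hochberg adjustment. CPM had been assumed for the design, and the test stayed when the unit proved to be a scaled signal. The median SE of a log2 fold change was 0.14, and 0.067 without TAZ-CAMTA1 replicate 2. Junction reads were compared with exact permutation tests. Promoters came from RefSeq and transcript lengths from GENCODE vM21. Alternatives included edgeR 4.0.16 and DESeq2 1.42.0 on the recovered reads. The deposited transcript tables were not used. A called list gene is not reported here by name.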

Additional observations from a re-analysis of the deposited data

How the results depend on the processing

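Of 660 refitted log2 fold changes of the members, 631 kept direction and side of the threshold, 16 were no longer called, 6 became called and 7 turned sign, all in values that had not been called. The turned values were Ctgf with TAZ-CAMTA1 against control on TPM (-0.038), F3 in that comparison after quantile normalization (-0.13), Ctgf between the constructs (-0.022 to 0.0041 with a library left out), and Amotl1 between the constructs with quality weights (0.029) and without a library (-0.57 to 0.042). Members called lower were 1 and not 0 (Amotl1) with TAZ4A in a fit of 6 samples, and with both constructs with quality weights (0 to 1 with a library left out). Members higher with TAZ-CAMTA1 than with TAZ4A were 0 on TPM. Members called with both constructs were 7, and 5 to 8 over all settings (5 on TPM, with 6 samples or without control replicate 2, and 8 where Amotl1 was called lower). Those higher with TAZ-CAMTA1 than in control were 5 to 7. Called with TAZ4A alone were 2 with a pseudocount of 2, quantile normalization, TPM or 6 samples (1 to 2 with a library left out). Called with 1 construct without a difference between them were 1 on TPM and 2 with 6 samples (0 to 1 with a library left out), and with neither 1 with 6 samples or quality weights (1 to 2). The Amotl1 junction ratio of TAZ4A over control was 1.01 when scaled to gene reads and 0.948 to 1.06 with a library left out. Those of Ajuba between the constructs and of Tgfb2 with TAZ-CAMTA1 were 0.974 to 1.30 and 0.990 to 1.69. The cause of these shifts was not tested.

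Genes called over the whole table numbered 3966, 3077 and 4684 for TAZ-CAMTA1 against control, TAZ4A against control and TAZ-CAMTA1 against TAZ4A. They became 7516, 7206 and 7779 without TAZ-CAMTA1 replicate 2, 7255, 7432 and 8272 with quality weights (0.0287 for that library), and 2445, 7233 and 3313 in fits of 6 samples. Without control replicate 3 the first was 2626. edgeR called 3942, 3078 and 4674. With CPM rescaled to equal sums the calls of TAZ4A against control were 1959 higher and 1108 lower, against 1630 and 1447. On TPM the median of all genes between the constructs was -0.13.

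The labels do not say that replicate numbers pair the samples, and the rule for pairing, every correlation of same-numbered deviations over 0.1, was not met: 6 of 9 were (-0.12 to 0.52), among them all 6 of replicates 2 and 3 (0.14 to 0.52). These values leave unsettled whether some numbers mark a shared step. With the replicate number as a block, 3881, 2890 and 4619 genes were called, and the members' classes were as without the block.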

Other observations

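At 2 introns of the members, STAR listed an unannotated acceptor 3 bases from the annotated one. These introns were chosen after their values were seen. For Cyr61 the unannotated acceptor took 0.950% to 1.67% of the reads of the pair of acceptors in TAZ-CAMTA1, 0.797% to 1.23% in TAZ4A and 0.909% to 1.39% in control libraries, over 4989, 6531 and 2564 reads. For Amotl1 it took 0% to 17.8%, 16.7% to 18.3% and 9.09% to 16.1%, over 121, 266 and 228 reads. The 0% belongs to TAZ-CAMTA1 replicate 2, which had 5 reads there. The groups overlapped at both introns apart from the Amotl1 shares of TAZ4A and control libraries.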
